A study of Mus musculus with 8 samples.

Results

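The genes Gpi1, Pfkl, Tpi1, Pgk1, Pgam1, Eno1 and Pklr encode enzymes of glycolysis in the order of the pathway, and Ldha encodes the enzyme that turns pyruvate into lactate. Their transcripts were read from the livers of 8 female Ames dwarf mice (df/df), 1 Affymetrix mouse U74Av2 array for each mouse. A gene was taken as measured where a probe set carried its symbol and no other, and the brightest such probe set stood for it. This left 6 of the 8 genes, among 8251 genes with such a probe set, and Gpi1 and Eno1 were not analysed here. All 6 were bright enough for the test of spread, as were 4869 genes in all.

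Homozygous df/df animals, as all 8 were, fail to form the pituitary cells that secrete thyroid stimulating hormone, prolactin and growth hormone, and are small for life. Their ration of pellets was 30% below what unrestricted df/df females ate, and the livers were taken when the animals were 24 to 26 months old. No other group was analysed here, so the values describe how these livers differ among themselves and carry no effect of diet or mutation. Each mouse had 1 array, so a mouse's own value has no error of its own, and no test separates mice that are neighbours in an order of levels.

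Glycolysis splits glucose into pyruvate with a net gain of ATP and NADH, and lactate dehydrogenase regenerates the oxidised coenzyme by turning pyruvate into lactate. In hepatocytes most of the steps run in both directions, and flux is set at the irreversible steps of glucokinase, phosphofructokinase and pyruvate kinase, which gluconeogenesis bypasses with enzymes of its own. Liver uses its own isozymes at these steps, the phosphofructokinase subunit of Pfkl and the L-type pyruvate kinase of Pklr. Pklr transcription in liver is known to rise with carbohydrate feeding and insulin, through the glucose-responsive factor encoded by Mlxipl.

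The livers differed most in the last, irreversible step, as read by the brighter of the 2 Pklr probe sets. On it Pklr ranged 3.24-fold, while the other 5 enzymes ranged between 1.27-fold and 1.92-fold. The other Pklr probe set ranged 1.85-fold, which lies among those 5. Pgam1, Tpi1 and Ldha were among the steadier transcripts on the array, with an SD of log2 intensity of 0.10, 0.14 and 0.14 between mice, against a median of 0.23 over the 4869 genes. The test of spread, given below as limma F test, set the variance between mice against the variance that limma fits at that brightness. None of the 6 passed it at an adjusted p under 0.05 (0 of 6, with 0% of 6265 probe sets passing). At an unadjusted p under 0.05 stood 1 of the 6, Pklr, against 6.38% of the probe sets tested.

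The array of mouse 5 stood apart in a measure of RNA integrity, and this touches several of the values that follow. Gapdh, the dehydrogenase between the steps of Tpi1 and Pgk1, is read on this array by control probe sets at the 5′ end, the middle and the 3′ end of the transcript. At the 5′ end mouse 5 read 6987, against a range of 15998 to 19034 over the other 7 mice, while at the 3′ end mouse 5 had the highest value, 18629, and the others lay between 13014 and 17803. The ratio of 3′ to 5′ intensity was 2.67 there, against 0.794 to 1.07 elsewhere. For Pcx, pyruvate carboxylase, the same ratio was 40.7 in mouse 5, with 2.64 to 9.17 elsewhere. Of the other transcripts read this way, Actb did not set mouse 5 apart, with a ratio of 1.60 there and between 1.45 and 2.0 in the other mice. The ratio of Tfrc was 4.87 in mouse 5 and between 2.09 and 8.46 elsewhere. It cannot decide the question, because the 5′ signal of Tfrc was 16.6 in mouse 5, under the floor set for the table, 37.2. That signal was also under the floor in mouse 3 (13.3) and reached at most 75.8 in any mouse. The 3′ signal of Actb itself ran from 763 in mouse 5 to 12065 in mouse 8. The direction in which Gapdh differs in mouse 5 therefore changes with the end that is read.

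**Figure D1:**
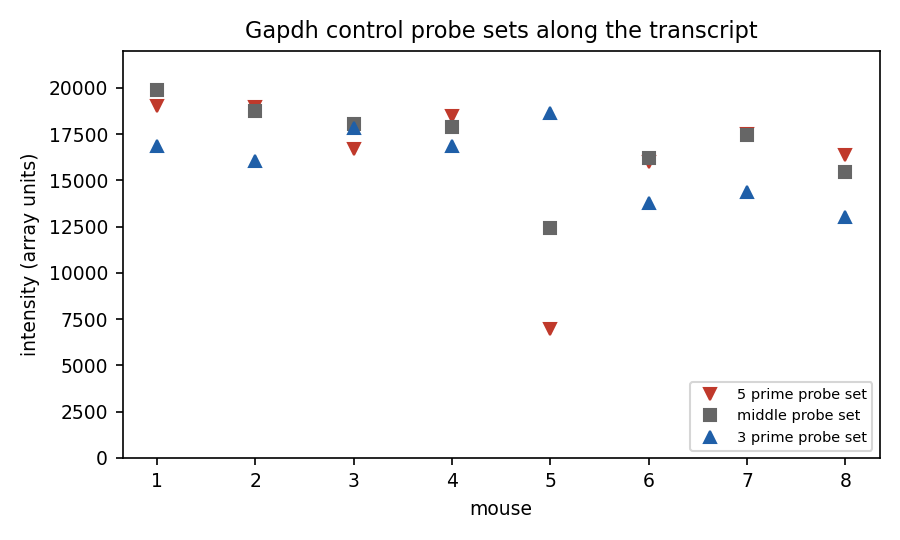
Intensity of the 3 Gapdh control probe sets (vertical axis, array units) in each of the 8 mice (horizontal axis), by position along the transcript. In mouse 5 the 5′ probe set read 6987 and the 3′ probe set 18629, while in the other 7 mice the readings at both ends lay between 13014 and 19034.

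Pfkl encodes the liver subunit of phosphofructokinase, which commits sugar to glycolysis. Its intensity averaged 1305 ± 183 (SD, n = 8), with a lowest value of 1052 in mouse 5, a median of 1311 and a highest value of 1549.7 in mouse 6. Mice 2 and 6 were at the top and mice 3 and 5 at the bottom. Its SD of 0.21 on the log2 scale was close to the 0.20 expected at that brightness (adjusted p = 0.989, limma F test). The highest liver was mouse 2 rather than mouse 6 when arrays were scaled to a common median or quantile normalised, and the lowest was mouse 3 with the median scaling.

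Tpi1, triose phosphate isomerase, interconverts the products of the aldolase step. It averaged 7571 ± 753 (SD, n = 8), from 6809 in mouse 6 through a median of 7431 to 9079.5 in mouse 5. Mouse 1, at 8146, came next, and the other 6 mice lay between 6809 and 7680.5. Without mouse 5 the highest value was 1.20 times the lowest, against 1.33 times with it, and after quantile normalisation mouse 1 and not mouse 5 was highest, and mouse 3 and not mouse 6 lowest. The SD of log2 intensity was 0.14, where 0.21 was expected (adjusted p = 0.989, limma F test).

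Pgk1, phosphoglycerate kinase, makes the pathway's first ATP in the second phase. It read 5480.2, 4122, 5004, 4403, 7635, 4716, 3985 and 4777.5 in mice 1 to 8, a mean of 5015 ± 1162 (SD, n = 8). Mouse 5 was above all others, also under both other scalings of the arrays, and the remaining 7 mice spanned 1.38-fold. The SD of log2 intensity was 0.30 over the 8 mice (expected 0.21, adjusted p = 0.989, limma F test) and 0.16 without mouse 5. Mouse 5 is the liver with the high 3′ to 5′ ratios, and the part of RNA integrity in its Pgk1 value was not tested.

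Pgam1, phosphoglycerate mutase, had the smallest spread of the 6 enzymes. It averaged 3713 ± 268 (SD, n = 8), from 3315 in mouse 3 through a median of 3725 to 4214.5 in mouse 4. Mouse 4 was highest under all 3 scalings of the arrays, while the lowest became mouse 8 with a common median. Only 3.37% of the 6265 probe sets had a smaller SD of log2 intensity. Its muscle counterpart Pgam2 was at or below the floor set for the table, 37.2, in all 8 mice, with a mean of 4.61 ± 0.859 (SD, n = 8).

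Ldha, the A subunit of lactate dehydrogenase, averaged 9295 ± 890 (SD, n = 8), from 7959.8 in mouse 7 through a median of 9447 to 10487 in mouse 5. Mice 5, 6 and 8 were at the top, between 9928 and 10487, and mice 4 and 7 at the bottom. The highest value was 1.32 times the lowest. After quantile normalisation mice 6 and 8 were highest and mouse 4 was lowest.

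**Figure D2:**
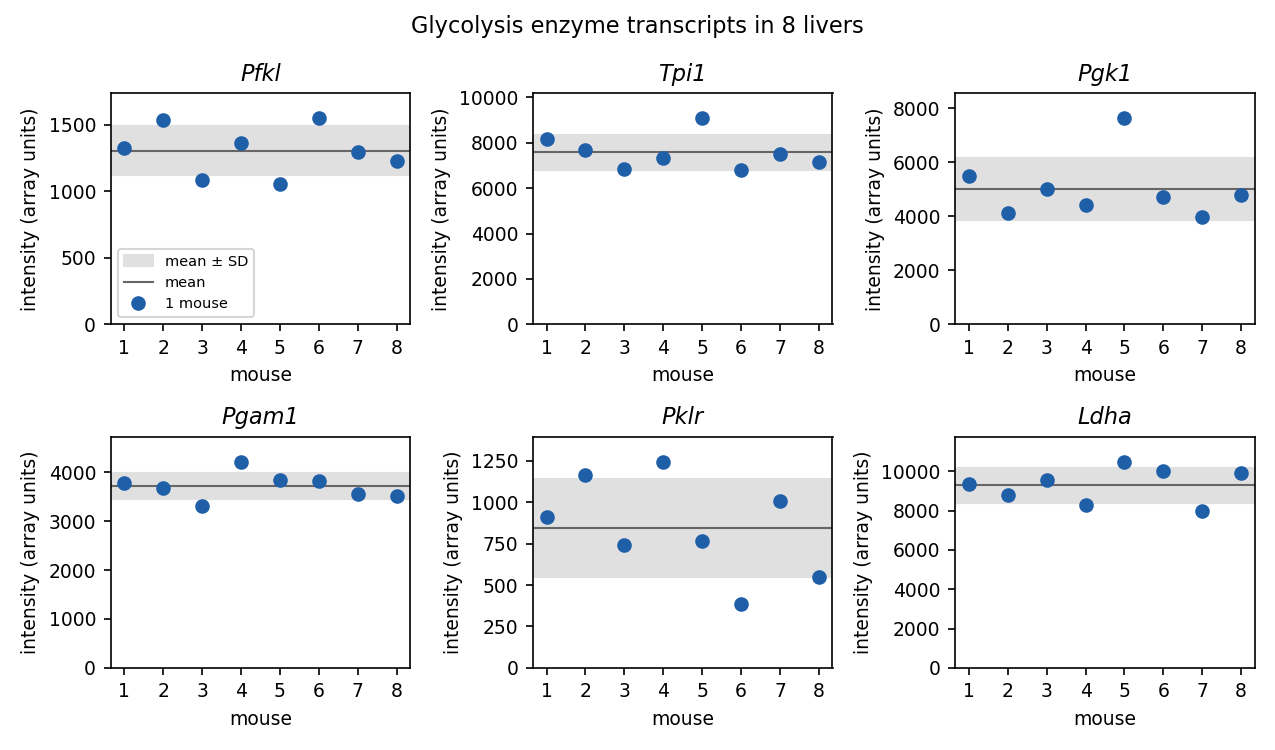
Intensity (vertical axis, array units, from 0) of the 6 measured enzymes in each of 8 mice (horizontal axis), with 1 point for each mouse, a line at the mean and a band of ± 1 SD. Pklr spans 385 to 1245 with its lowest points in mice 6 and 8, and mouse 5 lies above the band for Pgk1.

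Pklr encodes the pyruvate kinase of liver and of red cells. Its intensity was 910.4, 1164, 741, 1245, 766, 385, 1007 and 548.5 in mice 1 to 8, with a mean of 846 ± 295 (SD, n = 8). Mice 2, 4 and 7 were highest and mice 6 and 8 lowest, and the order at either end, mouse 4 and mouse 6, was the same under all 3 scalings of the arrays. The SD of 0.57 on the log2 scale was larger than that of 91.1% of the probe sets tested, where 0.20 was expected at its brightness (unadjusted p = 0.0372, adjusted p = 0.743, limma F test). The unadjusted p rose to 0.0854 without mouse 6 and to 0.117 with the mean of both Pklr probe sets.

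The other Pklr probe set shares probes with related transcripts. It read 752, 897, 558, 684, 513, 486, 721 and 690 in mice 1 to 8, again lowest in mouse 6. Mouse 8 was not low on it, and the highest value was in mouse 2 rather than mouse 4. The range was 1.85-fold and the SD of log2 intensity 0.30 (unadjusted p = 0.257, adjusted p = 0.989, limma F test). Over the 8 mice the log2 values of the probe sets had r = 0.689 and rho = 0.595, and r = 0.490 without mouse 6. These are readings of the same RNA on the same arrays, given as a description.

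**Figure D3:**
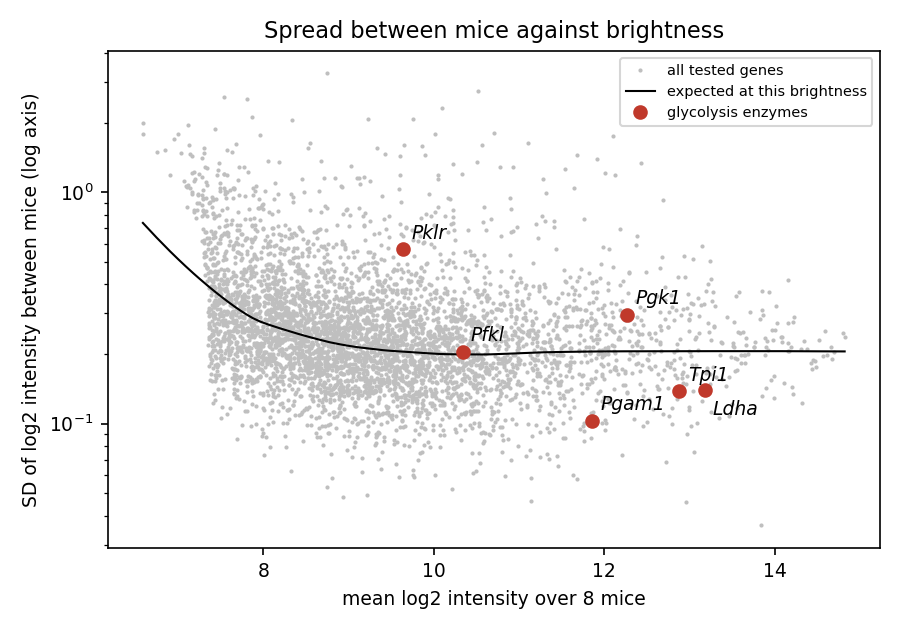
SD of log2 intensity between the 8 mice (vertical axis, log scale) against mean log2 intensity (horizontal axis) for 4869 genes in grey, with the spread expected at each brightness as a line and the 6 enzymes as labelled points. Pklr (0.57) and Pgk1 (0.30) lie above the line, Pfkl (0.21) on it, and Tpi1, Ldha and Pgam1 below it.

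The Pklr promoter is shown because it holds the arrangement that carbohydrate-responsive elements have in liver, E-box ends facing each other across a spacer. Its sequence and those below come from RefSeq (GRCm38.p6), where all 6 measured genes had an entry, in 8 windows. The window for the start used here is chr3:89136373-89136622 on the + strand, the 250 bases before a transcript start, with the match to CACG, any 9 bases and CGTG, which reads the same on either strand, in capitals.
Pklr: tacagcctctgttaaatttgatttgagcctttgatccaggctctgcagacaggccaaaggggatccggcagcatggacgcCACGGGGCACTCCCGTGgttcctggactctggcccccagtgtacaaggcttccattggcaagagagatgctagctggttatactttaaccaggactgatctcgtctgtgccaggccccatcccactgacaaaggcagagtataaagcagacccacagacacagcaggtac
The match begins at position -170, counted from the start with -1 as the base before it. This arrangement occurs in 1 of the 8 windows of the measured enzymes and in 0.219% of 32851 windows of all genes. The other Pklr window holds none. A match is a description of letters and not a shown binding site.

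The enzymes did not share 1 pattern over the livers. The 15 pairs of enzymes had a median Pearson's r of log2 intensity of 0.11, with 9 pairs above 0, where the median over all pairs of tested genes was 0.0022 and 50.2% were above 0. No pair passed at an adjusted p under 0.05 (0 of 15, exact two-sided permutation test over the 40320 orders of the mice, Benjamini-Hochberg over the 15 pairs), and 2 had an unadjusted p under 0.05. Both genes of a pair were read from the same RNA on the same array.

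Pgk1 and Ldha were highest in the same liver and lowest in the same liver, mice 5 and 7 (r = 0.745, exact permutation p = 0.023, adjusted p = 0.264, and rho = 0.738, exact permutation p = 0.0458, adjusted p = 0.344). Leaving out mice 5 and 7, the farthest from the median of Pgk1, gave r = 0.509, and leaving out mouse 5 alone r = 0.694. The relation depended on the scaling, at r = 0.397 after quantile normalisation and r = 0.918 (exact permutation p = 0.00707, adjusted p = 0.106) with a common median. Pklr and Ldha ran in opposite directions (r = -0.730, exact permutation p = 0.039, adjusted p = 0.264, and rho = -0.786, exact permutation p = 0.0279, adjusted p = 0.344). Without mice 6 and 8 this was r = -0.781 and without mouse 5 r = -0.831. It changed with the scaling of the arrays, to r = -0.285 with a common median and to r = -0.905 (exact permutation, adjusted p = 0.0491) with quantile normalisation.

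The pairs of Tpi1 with Pgk1 and with Ldha turned on mouse 5. Tpi1 and Pgk1 had r = 0.683 (exact permutation p = 0.0697, adjusted p = 0.264) but rho = 0.262 (exact permutation p = 0.536, adjusted p = 0.731). Without mouse 5 r was 0.019, and without mice 1 and 5 it was -0.897, so the relation rests on those samples. Tpi1 and Ldha had r = 0.176 over the 8 mice and r = -0.430 without mouse 5. Tpi1 kept its sign with Pgam1 (0.314, and 0.261 without mouse 5) and with Pklr (0.369, and 0.641 without mouse 5). Pfkl and Pgk1 had r = -0.657 (exact permutation p = 0.0705, adjusted p = 0.264, rho = -0.571, exact permutation p = 0.151), and r = -0.367 without mouse 5.

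**Figure D4:**
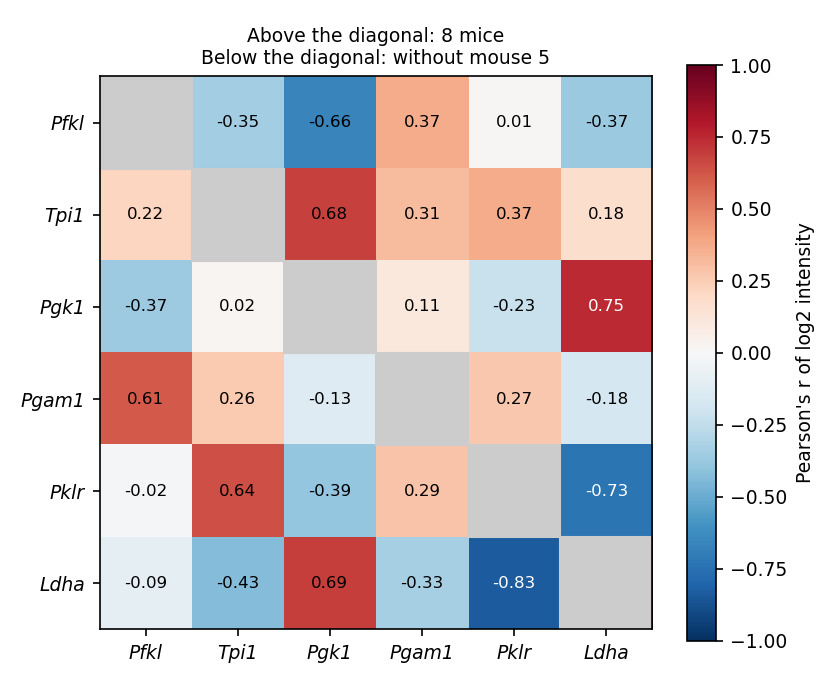
Pearson's r of log2 intensity for each pair of the 6 enzymes, over 8 mice above the diagonal and over the 7 mice without mouse 5 below it. Tpi1 and Pgk1 go from 0.68 to 0.02 without mouse 5, while Pgk1 and Ldha (0.75 and 0.69) and Pklr and Ldha (-0.73 and -0.83) keep their sign.

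Pgk1 and Ldha are known targets of the hypoxia-inducible factors, whose binding core is ACGTG, and their promoters are shown for that reason. Each is the 250 bases before a RefSeq start (GRCm38.p6), both on the + strand, Pgk1 at chrX:106186850-106187099 and Ldha at chr7:46845554-46845803. Capitals mark ACGTG on either strand, so that a CACGTG counts as a match on each strand and its matches overlap.
Pgk1: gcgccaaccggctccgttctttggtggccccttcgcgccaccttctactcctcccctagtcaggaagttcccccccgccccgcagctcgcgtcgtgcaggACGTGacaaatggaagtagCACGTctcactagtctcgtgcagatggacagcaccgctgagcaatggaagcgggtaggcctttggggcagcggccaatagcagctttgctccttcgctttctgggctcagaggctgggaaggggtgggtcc
Ldha: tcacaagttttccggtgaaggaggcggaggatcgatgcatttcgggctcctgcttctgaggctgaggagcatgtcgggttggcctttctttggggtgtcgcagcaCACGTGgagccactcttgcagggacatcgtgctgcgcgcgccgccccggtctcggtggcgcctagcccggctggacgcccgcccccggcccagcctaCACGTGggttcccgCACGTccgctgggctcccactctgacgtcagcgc
The Pgk1 window holds 2 matches and the Ldha window 5, of which 4 lie in the 2 copies of CACGTG. Over both strands ACGTG occurs in 3 of the 8 windows of the measured enzymes, the third being that of Pgam1, and in 16.6% of all 32851 windows. The other Ldha window holds none. The transcript of Hif1a, which encodes a subunit of the factor, read from 1164 in mouse 7 to 1674 in mouse 6 on its brighter probe set. Both Hif1a probe sets share probes with a family. The other ran from 771 in mouse 1 to 1564 in mouse 6, and relations were not tested on it alone. On the brighter probe set Hif1a showed no relation to Pgk1 that passed (r = -0.186, exact permutation p = 0.648, adjusted p = 0.778, rho = 0.0238, exact permutation p = 0.977) or to Ldha (r = 0.346, exact permutation p = 0.402, adjusted p = 0.778, rho = 0.286, exact permutation p = 0.501). Without mice 5 and 7 the r with Pgk1 was 0.053, and without mice 4 and 7 the r with Ldha was 0.191. Without mouse 5 alone these values were 0.331 and 0.697. Hif1a is regulated mainly at the protein level, which an array does not read.

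Pyruvate kinase was read through both of its genes. Pkm encodes the M-type enzyme of most tissues and of blood-borne cells. Its brighter probe set shares probes with related transcripts. On it mouse 6 read 2495, mouse 8 read 1496, and the other 6 mice lay from 306 to 407, a range of 8.16-fold (unadjusted p = 0.00364, adjusted p = 0.397, limma F test). The livers with the highest Pkm, mice 6 and 8, were those with the lowest Pklr on its brighter probe set. For Pkm they stood clear of the other 6 mice. For Pklr mouse 8 (548.5) was followed by mice 3 (741) and 5 (766), and on the other Pklr probe set mice 3, 4 and 5 read below mouse 8. The other Pkm probe set, which shares probes with a family, read 1098.5 in mouse 6 but 331 in mouse 8, within the range of the others (294 to 479). The high value in mouse 6 was thus on both probe sets and that in mouse 8 on 1.

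Of the other genes of glycolysis some were highest in mouse 6 and others were not. Aldoa, the aldolase of muscle and most other cells, read 4337 in mouse 6, 2986 in mouse 8 and 2098 to 2538 elsewhere, on a probe set shared within its family. Its other family probe set was highest in mouse 8 (1979), with 1601 in mouse 6 and 912 to 1420 elsewhere. The hexokinase gene Hk2 read 236 in mouse 6 and 148 in mouse 8 and at most 52.5 elsewhere. The glucose transporter gene Slc2a1, whose product serves most cells other than hepatocytes, read 293 in mouse 6, 262 in mouse 8 and 41.1 to 137 elsewhere. Hk2 and Slc2a1 were too dim on average for the test, and the other Hk2 probe set was at or below the floor in all 8 mice. Slc2a2, the glucose transporter of hepatocytes, was lowest in those livers, at 5502 in mouse 6 and 6278 in mouse 8 against 7160.5 to 10426 in the others (adjusted p = 0.989, limma F test). The hexokinase gene Hk1 did not share this pattern, at 3595 and 3227 in mice 6 and 8 within a range of 2711 to 3925. Aldoc (412), Pfkm (958), Eno3 (287) and Pfkfb3 (205) in mouse 6 also lay within the range of the other mice.

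Macrophage markers were highest in the same livers. Of 11 listed markers all had a probe set and 10 were bright enough. Their mean log2 intensity, each gene taken relative to its mean over the mice, was 1.69 in mouse 6, 0.91 in mouse 8 and from -0.86 to 0.13 elsewhere. Lyz2, lysozyme, read 5784 and 3805 in mice 6 and 8 and between 328 and 1091 elsewhere, and Csf1r, the receptor for macrophage growth factor, 3029 and 1514 against 585 to 913. Marco, a scavenger receptor, read 172 and 176 there and was at or below the floor in 5 of the other mice. Clec4f, which marks resident Kupffer cells, differed, at 1221 and 747 in mice 6 and 8 within a range of 524 to 1362. Interferon response markers (7 of 8 measured) were also highest in mice 6 (2.28) and 8 (1.76), with -1.95 to 0.94 elsewhere. The mean of the erythrocyte markers (2 of 4 bright enough) was lowest in mice 6 and 8, at -0.45 and -0.34 with -0.26 to 0.30 elsewhere. These 2 genes differed. Hba-a1 was lowest in mouse 8 (4393), then mouse 1 (5379) and mouse 6 (5819). Alas2 was lowest in mouse 6 (810), but its 1256 in mouse 8 lay within the range of the other mice (1055 to 1298.5). Of 4 neutrophil markers 1 was bright enough, S100a8, at 2.02 in mouse 6 and at most 0.087 elsewhere. S100a8 was bright enough only through mouse 6, as the other mice read at most 145.9, below the brightness minimum of 165.2. The mean of the stellate cell markers (3 of 3 bright enough) stood at 0.82 in mouse 6 and at most 0.17 elsewhere. Col1a1 (969, at most 660 elsewhere) and Col3a1 (591, at most 266 elsewhere) were high there. Des differed little, at 189 in mice 6 and 3 and down to 152 in mouse 8. The endothelial marker Kdr, the 1 of 3 bright enough, was lowest in mice 8 (-1.03) and 6 (-0.59). The hepatocyte markers (6 of 8 measured) ranged over 0.32 on the same scale, lowest in mouse 6 (-0.21). Hnf4a is among them and was lowest in mouse 5 (266) and highest in mouse 8 (1308). Alb, Ttr, Apoa1, Tat and Cps1 were each highest or next to highest in mouse 5. In mouse 8 each of them was lowest or next to lowest. The level of the list in mice 5 and 8 therefore averages opposed values. The 4 striated muscle markers were all too dim to test. In whole liver, fewer cells of a type and less RNA in each cell cannot be told apart, and the part of RNA from these other cell types in the Pkm, Aldoa, Hk2 and Slc2a1 values was not tested.

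**Figure D5:**
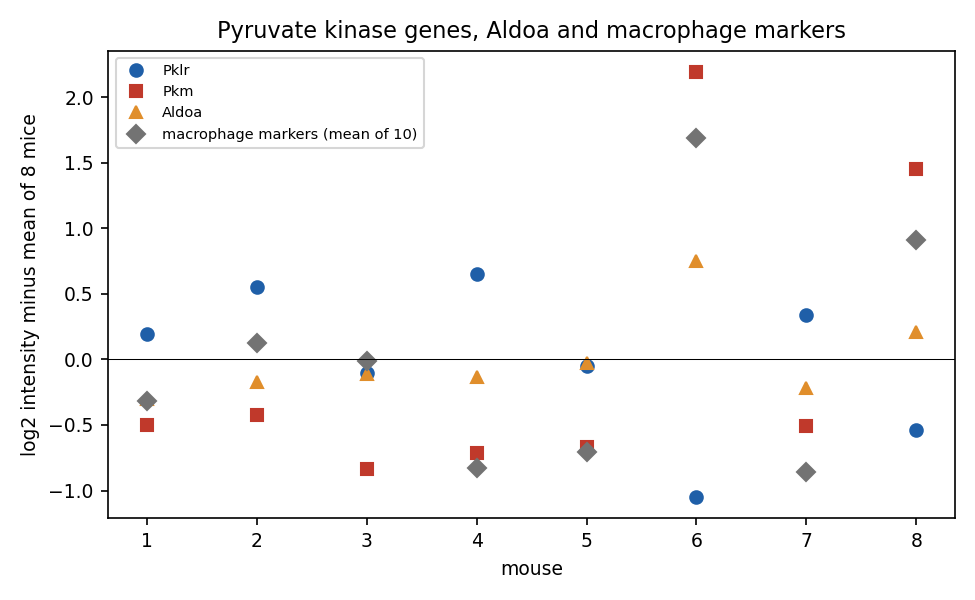
Log2 intensity minus the mean of 8 mice (vertical axis) for Pklr, Pkm and Aldoa, and the mean of 10 macrophage markers on the same scale, in each mouse (horizontal axis). Pkm, Aldoa and the markers have their highest points in mice 6 and 8, where Pklr has its lowest.

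Each enzyme was then set against 4 marker lists, a set of 24 relations chosen after the data were seen. None passed (0 of 24, exact permutation test, Benjamini-Hochberg over the 24), and 4 had an unadjusted p under 0.05, all with Pklr. Against the macrophage markers Pklr had r = -0.843 (exact permutation p = 0.00955, adjusted p = 0.184) and rho = -0.690 (exact permutation p = 0.0694, adjusted p = 0.518). Without mice 6 and 8 it was r = -0.150, so the relation rests on those mice. The relations of Pklr with the interferon response markers (r = -0.750, exact permutation p = 0.0307, adjusted p = 0.184), the hepatocyte markers (r = 0.762, exact permutation p = 0.0271, adjusted p = 0.184) and the erythrocyte markers (r = 0.787, exact permutation p = 0.0202, adjusted p = 0.184) did likewise, at -0.261, -0.050 and 0.260 without mice 6 and 8. Their rho was -0.786, 0.5 and 0.833 (exact permutation p = 0.0279, 0.216 and 0.0154, adjusted p = 0.335, 0.576 and 0.335). Ldha had r = 0.529 with the macrophage markers (exact permutation p = 0.176, adjusted p = 0.469, rho = 0.571, exact permutation p = 0.151), 0.852 without mouse 5 and 0.103 without mice 4 and 7.

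Pklr was also compared with genes that its biology ties to it. Thrsp, a lipogenic gene induced by carbohydrate and thyroid hormone, had r = 0.732 with Pklr (exact permutation p = 0.0394, adjusted p = 0.118 over 6 pairs) and rho = 0.667 (exact permutation p = 0.0831, adjusted p = 0.289). Without mice 6 and 8 this was r = -0.195, so it rests on those livers, and without mouse 5, where Thrsp read 8548, it was r = 0.898 (exact permutation, adjusted p = 0.0393). Fbp1, the gluconeogenic fructose bisphosphatase, followed Pklr rather than opposing it (r = 0.761, exact permutation p = 0.0277, adjusted p = 0.118, rho = 0.643, exact permutation p = 0.0962, adjusted p = 0.289), and r was 0.468 without mice 6 and 8. That pair passed when arrays were scaled to a common median (r = 0.862, exact permutation, adjusted p = 0.0315) and without mouse 5 (r = 0.845, exact permutation, adjusted p = 0.0482), but fell to r = 0.504 (exact permutation p = 0.193, adjusted p = 0.386) after quantile normalisation. Pck1, which makes phosphoenolpyruvate for gluconeogenesis, had r = 0.230 with Pklr (exact permutation p = 0.580, adjusted p = 0.778, rho = 0.310, exact permutation p = 0.462) and r = -0.305 without mice 6 and 8. Without mouse 2 it was r = 0.714 (exact permutation p = 0.073, adjusted p = 0.146). Pfkl and Fbp1, which catalyse opposite reactions, had r = 0.082 (exact permutation p = 0.847, adjusted p = 0.847, rho = 0.0952, exact permutation p = 0.840), and -0.017 without mice 3 and 5.

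The other genes of the pathway, with opposing enzymes and regulators, were taken as a list of 40, of which 31 had a probe set and 19 were bright enough. None of the 19 passed the test of spread (0 of 19, limma F test), 4 had an unadjusted p under 0.05 (21.1%, against 6.38% of all probe sets), and their median SD of log2 intensity was 0.25. Besides Pkm these 4 were G6pc, which releases free glucose, from 541 in mouse 2 to 4958 in mouse 5, Thrsp, from 769 in mouse 6, and Hnf4a, a hepatocyte transcription factor known to act on the Pklr promoter. Hnf4a read 266 in mouse 5 and between 702.5 and 1308 in the others. By kind, the 4 were 1 of 9 tested genes of glycolysis and sugar entry (11.1%), 1 of 4 opposing enzymes and 2 of 6 regulators. The list was chosen with earlier results of these data known, so these shares are a description. Among the remaining glycolysis genes Pfkm (996 ± 93.3, SD, n = 8) and Aldoc (476 ± 68.0) differed little, and Eno3, the muscle enolase, ran from 196 in mouse 8 to 401 in mouse 4. Of the opposing enzymes Pck1 (7094 ± 886), Pcx (1475 ± 161) and Fbp1 (17562 ± 2676) did not pass either (adjusted p = 0.989 for each, limma F test). The regulators Srebf1 (3926 ± 537), Mlx (698 ± 57.7) and Usf1 (1245 ± 214) did not pass (adjusted p of 0.989, 0.995 and 0.989, limma F test). Pfkfb3, which makes the activator of phosphofructokinase, was highest in mouse 5 (316) and otherwise lay between 142 and 243.5.

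For each enzyme the 3 genes with the most similar log2 pattern over the 8 mice were found among the tested genes. As the highest correlations among all genes tested they are given with no test. Nearest to Pklr were Hagh (r = 0.989), a glyoxalase, Decr1 (r = 0.989), a dienoyl-CoA reductase of fatty acid oxidation, and Hao2 (r = 0.978), a peroxisomal hydroxyacid oxidase. All 3 were highest in mouse 4 and lowest in mouse 6, like Pklr, and Hao2 ranged 7.39-fold where Hagh and Decr1 ranged 1.69-fold and 1.78-fold. Without mouse 5 these values were 0.995, 0.989 and 0.978. Nearest to Tpi1 were the kinase gene Map2k6 (r = 0.982), the mitochondrial ribosomal gene Mrps10 (r = 0.972) and Sdhd (r = 0.971), a subunit of succinate dehydrogenase. Each was highest in mouse 5 and lowest in mouse 6, and Sdhd kept r = 0.926 without mouse 5.

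Nearest to Pgk1 were Gne (r = 0.973), the first enzyme of sialic acid synthesis, Sypl (r = 0.952) and the transcription factor gene Nfatc2 (r = 0.951), all highest in mouse 5. Without that mouse they stood at 0.892, 0.943 and 0.899. Ldha had Orc4 (r = 0.972), a subunit of the origin recognition complex, the tubulin cofactor gene Tbcb (r = 0.963) and Sec13 (r = 0.947), a coat protein of transport vesicles. Pfkl had the peptidase gene Prep (r = 0.955), Sgpl1 (r = 0.925), which breaks down sphingosine phosphate, and the RNA-binding protein gene Tardbp (r = 0.903). Pgam1 had the translation factor gene Eif5 (r = 0.937), the kinase gene Clk4 (r = 0.928) and Mfsd5 (r = 0.914), each highest in mouse 4 and lowest in mouse 3. The 18 genes were all different, so no gene was among the nearest to more than 1 enzyme.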

How the data were processed

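Liver RNA of 8 mice was hybridised to Affymetrix U74Av2 arrays and scanned on a Hewlett-Packard GeneArray scanner, per the labels. The deposited table gives 1 intensity for each of 12488 probe sets and array, linear and above 0. The mean after trimming 2% of probe sets at each end differed between arrays by 0.00455% (SD over mean), so the deposited intensities were already scaled. The software that summarised the probes was not given in the sources used here. No label gives a batch or scan date.

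Values under a floor of 37.2, the 25th percentile of the table, were set to it before taking log2. Control probe sets (66) were left out of the tests, and those whose mean reached 165.2, the table's median, were tested, 6265 for 4869 genes. Genes come from the platform annotation, brightest probe set per gene. All 6 enzymes were above the floor in every mouse.

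With 1 group the test was of the variance between mice (7 degrees of freedom) against that expected at the same brightness, a one-sided F test with limma 3.58.1 (squeezeVar, robust trend, prior degrees of freedom 3.80, R 4.3.3), Benjamini-Hochberg over all probe sets at 0.05. Pairs were tested by exact two-sided permutation, in families of 15, 6 and 24 with Benjamini-Hochberg within each. Of 12 pathway pairs planned, 6 could not be run because a gene was unmeasured or too dim. The number of arrays limits the precision. The calculations were also run on simulated data, and the outcome is not given here. On the deposited data the test of spread passed no probe set. Even the interferon response marker Gbp3, with a 39.8-fold range, did not pass (adjusted p = 0.308, limma F test). Not passing is therefore no sign of a small spread. Named genes are the enzymes, a fixed list of pathway and marker genes, and the 3 genes most correlated with each enzyme. The members and lists were chosen with earlier results of these data known.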

Additional observations from a re-analysis of the deposited data

Results flagged for a closer look

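Of 76 probe sets, marker levels and 3′ to 5′ ratios examined, 9 had a mouse set apart from the rest by Dixon's ratio at the 95% level. Chance alone gives about 1 such case in 20. The ratio is a mouse's gap to the next mouse divided by the range over the 8 mice, both on the log2 scale. The intensities printed beside it are linear and would give other ratios. Mouse 5 accounted for 4 of them and mouse 6 for 4. In mouse 5 the Gapdh signal at the 5′ end was low (6987, a ratio of 0.827), the Gapdh 3′ to 5′ ratio was high (0.756), as was that of Pcx (0.544), and Hnf4a was low (266, a ratio of 0.61). In mouse 6 the family probe set of Pkm was high, at 1098.5 (0.631). The neutrophil marker S100a8 (556, with 78.8 to 146 elsewhere, a ratio of 0.685) was also high there. Its mean of 169.9 reached the brightness minimum of 165.2 only through mouse 6, as every other mouse read below that minimum. The flag for S100a8 therefore rests on a probe set that the value of mouse 6 itself let in. The stellate cell marker Col3a1 (591, with 139.7 to 266 elsewhere, 0.553) was high in mouse 6 as well. The erythrocyte marker Alas2 was low there (809.6, with 1055 to 1298.5 elsewhere, 0.56). Pfkm was low in mouse 3, at 810 where the others lay between 958 and 1107 (0.537). None of the 6 enzymes met this criterion on the log2 scale, and Pgk1 in mouse 5 came nearest, with a ratio of 0.510. The ratio was not taken on linear intensities, where the gap of mouse 5 for Pgk1 weighs more.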

How the results depend on the processing

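The count of enzymes passing the test of spread was 0 under every alternative run (floor at the 10th percentile, median scaling, quantile normalisation, averaging a gene's probe sets, no filter, a stricter filter, 1 prior variance without trend, family probe sets left out, and each mouse left out). The count over all probe sets tested was also 0 in each run, so this result does not set the enzymes apart. In the main run the lowest adjusted p of any probe set was 0.265 (limma F test). Pklr lost its unadjusted p under 0.05 with the mean of probe sets, no filter, no trend and without mouse 6. The count of enzyme pairs passing was 0, but 1 with quantile normalisation (Pklr and Ldha), and 0 with each mouse left out. The count of pairs with pathway partners was 0, but 1 with arrays scaled to a common median (Pklr and Fbp1), and from 0 to 2 with 1 mouse left out, the 2 being Pklr with Thrsp and with Fbp1 without mouse 5. Of the marker relations, 4 passed with quantile normalisation, Pklr with macrophage markers among them (r = -0.867, exact permutation, adjusted p = 0.0382). The rest of these 4 were of other enzymes. Pklr with the hepatocyte, interferon response and erythrocyte markers did not pass there (exact permutation, adjusted p = 0.756, 0.0726 and 0.0611). The cause of these changes was not tested. Median scaling shifted mouse 5 by 0.18 and mouse 8 by -0.10 on the log2 scale, the other mice by less. No paired analysis was possible because the mice form 1 group.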
